A study of Homo sapiens with 9 samples.

Results

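The proteins described here bind nuclear lamins at the inner nuclear membrane or link the lamina to the cytoskeleton, and their transcripts were measured on arrays after depletion of Lamin A/C or Lamin B2 in DLD1, an established line of human colorectal cancer cells. The rule for membership is a list of gene names and uses no measured value, although the list was drawn up with earlier results of these data known. It holds 10 genes, EMD, TMPO, LEMD3, LBR, BANF1, SUN1, SUN2, SYNE1, SYNE2 and ZMPSTE24, and all 10 were found on the array, with 19 of its 50238 probes and among 31033 gene names. SUN1 and SUN2 carry their older names UNC84A and UNC84B in the files. The cultures fell into groups of 3: untreated DLD1 controls, cells with Lamin A/C knocked down (Lamin A/C Kd) and cells with Lamin B2 knocked down (Lamin B2 Kd), the last groups with 100 nM siRNA over 48 h. Cells given a control siRNA were not among the arrays, so transfection and loss of the lamin cannot be told apart in any comparison with the controls. Each knockdown used 1 siRNA sequence in 1 cell line.

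Lamins form the filament meshwork under the inner nuclear membrane. Emerin (EMD), the LAP2 proteins (TMPO) and MAN1 (LEMD3) share the LEM domain, a fold that binds BAF (BANF1), a small DNA-bridging protein that helps membranes gather around chromatin after mitosis. The lamin B receptor (LBR) is a membrane protein that holds heterochromatin at the periphery and also has sterol reductase activity. SUN1 and SUN2 span the inner membrane and bind the nesprins (SYNE1 and SYNE2) of the outer membrane, forming the LINC complex that connects lamins to actin and microtubules. ZMPSTE24 is the metalloprotease that cleaves prelamin A into mature Lamin A. Loss of A-type lamins is known to displace emerin from the nuclear envelope to the endoplasmic reticulum, which is a matter of protein position and was not measured on these arrays.

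The sequences that matter for reading the results are those of the genes measured by more than 1 probe, since a knockdown can give different values on different probes. The probes are 60 bases long, and 30 bases of each are printed 5′ to 3′, the first 30 unless stated otherwise. TMPO was measured by probe 1, which the files tie to the record of the alpha isoform of LAP2, and by probe 2, tied to the records of the beta and gamma isoforms.
TMPO probe 1: aaagtaattgcctgtgtagaactacttgtc
TMPO probe 2: atggaaaccaaccaagtaaatcccttctct
The files tie both SUN1 probes to the same RefSeq record, but the other transcript records listed for them differ. These probes gave different results in Lamin A/C Kd.
SUN1 probe 1: tttcactctccttagaattggaactatgca
SUN1 probe 2: ggaccacttctggggtcttgatgatgatgg
Of the 5 SYNE2 probes, 2 overlap by 20 bases, shown in capitals, so they are not separate measurements of different stretches. The last 30 bases are shown for probe 5.
SYNE2 probe 4: AACCTCAAGTGGACATGTTAcaggagattt
SYNE2 probe 5: gtagaacgtcAACCTCAAGTGGACATGTTA
EMD had a single probe, shown because its transcript had the greatest fitted decrease of the set in both knockdowns.
EMD probe: tgaagaaggcaaccccttctagagggagcc
The files give no genome position for the probes of the set, and none is given here.

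All levels below are log2 signals minus the median of the array, and a difference of 1 is a 2-fold change. Tests took in probes that stood well above background throughout at least 1 of the groups compared (all 3 arrays), and a gene has the value of its brightest tested probe. In bulk RNA, a change in the cells that carry a transcript and a change in RNA per cell cannot be told apart. Of the arrays, 8 shared a slide. The share of spots well above background ranged from 65.6% to 74.1% over the 9. Lamin B2 Kd replicate 3 was on another slide, its file holds rounded values without the multiplicative detrending of the others, and its mean correlation with the other arrays of its group was 0.975, against 0.982 to 0.993 for the other 8 arrays. Values of a gene's brightest probe that moved by over 1.5 times, or whose call changed, when it was left out are therefore given both ways. All 10 colorectal epithelial markers, including EPCAM, KRT8 and KRT18, were well above background on all 9 arrays, and their summed log2 level was 12.9 to 13.0 in controls, 13.0 to 13.0 with Lamin A/C depleted and 12.8 to 13.2 with Lamin B2 depleted. Of the 5 fibroblast markers, COL1A1 and COL1A2 were above background on 2 arrays, COL3A1 on 1, DCN on 8 and THY1 on 9. The summed fibroblast level was 3.54 to 3.86 in controls, 3.62 to 3.73 in Lamin A/C Kd and 3.67 to 4.31 in Lamin B2 Kd, and THY1 made up nearly all of it. PTPRC, which marks leukocytes, was above background on 2 arrays. Of the 3 endothelial markers, CDH5 was above background on 2 arrays and PECAM1 and VWF on 9, and the summed endothelial level was 0.81 to 1.03, 0.99 to 1.32 and 0.53 to 1.22 in the same order. Their part in the results was not tested.

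The knockdowns were checked first on the lamins themselves. LMNA was at 7.04% of its control signal in Lamin A/C Kd, a log2 fold change of -3.83 with a standard error of 0.22 (limma adjusted p = 0.000272). LMNB2 was at 20.0% of control in Lamin B2 Kd, a log2 fold change of -2.32 with a standard error of 0.14 (adjusted p = 0.000604). LMNB1, the lamin that neither siRNA targets, did not pass in either knockdown. Its log2 fold change was -0.99 with Lamin A/C depleted (adjusted p = 0.175, and 0.0446 when Lamin B2 Kd replicate 3 was left out). With Lamin B2 depleted it was -0.64 (adjusted p = 0.352), or -0.19 without replicate 3. LMNB2 was at 77.8% of control in Lamin A/C Kd, with every array below every control (adjusted p = 0.158). LMNA did not pass in Lamin B2 Kd (adjusted p = 0.433). Its mean level there was 8.54, against 8.83 in controls, with replicate 3 the lowest at 7.97. Without replicate 3 the log2 fold change of LMNA was -0.00065 (adjusted p = 0.998).

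Depletion of Lamin A/C was accompanied by a lower SUN1 signal on probe 1, its brightest, but not on probe 2. The LEM-domain genes, LBR, BANF1 and SUN2 were also lower on every array, though these did not pass the test. SUN1 fell to 66.8% of its control signal and was the 1 member of 10 that passed the adjusted p, where 8.61% of all 21868 genes tested passed and 5.57% passed as lower. EMD was at 46.8% of control and was the 1 member called at 2-fold with an unadjusted p under 0.05, against 2.19% of all genes. For 7 of 10 members the groups did not overlap and Lamin A/C Kd was the lower, against 25.2% of all genes, and these were EMD, TMPO, LEMD3, LBR, BANF1, SUN1 and SUN2. Only SYNE1 had every Lamin A/C Kd array above every control, against 15.6% of all genes. Of the 10, 6 had an unadjusted p under 0.05, against 23% of all genes. The median log2 fold change of the 10 was -0.39, or 76.3% of control, and the median of all genes tested was -0.04.

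The number of members past the threshold depended on Lamin B2 Kd replicate 3, although that array enters the comparison of Lamin A/C Kd with controls only through the shared estimate of spread. Without it, the same 7 genes, EMD, TMPO, LEMD3, LBR, BANF1, SUN1 and SUN2, passed, all lower, where 20.3% of all genes passed and 13.2% passed as lower. With only the control and Lamin A/C Kd arrays in the fit, 6 members passed, all lower, where 20% of all genes passed and 12.7% passed as lower. The log2 fold changes themselves were the same in these fits.

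**Figure D1:**
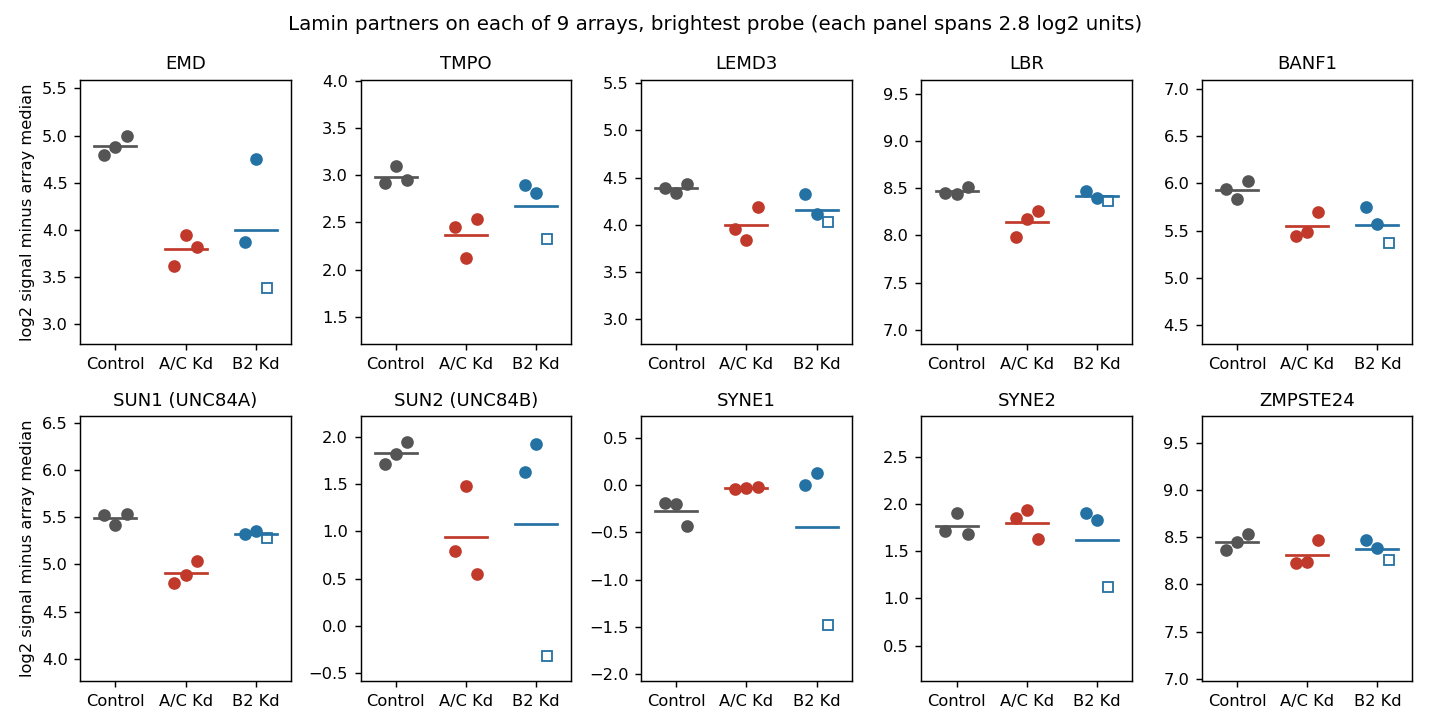
Log2 signal minus the array median of each lamin partner (vertical axis, each panel spanning the same range) on the 3 arrays of each group (points) with the group mean (bars), on the brightest probe. The open square is Lamin B2 Kd replicate 3. The red points of Lamin A/C Kd lie wholly below the grey control points for EMD, TMPO, LEMD3, LBR, BANF1, SUN1 and SUN2, and on this scale the open square is the lowest point of its group for all 10 genes.

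Among the LEM-domain genes, EMD had log2 signals of 4.80, 4.88 and 4.998 in controls, 3.62, 3.95 and 3.82 in Lamin A/C Kd and 3.87, 4.75 and 3.38 in Lamin B2 Kd. The Lamin A/C Kd arrays were all about 1 unit below the controls, whereas in Lamin B2 Kd replicate 2 lay just under the lowest control and the others well below. The log2 fold change in Lamin A/C Kd was -1.09 (standard error 0.29, 95% interval -1.75 to -0.43, limma adjusted p = 0.0511), just short of the threshold, and it was between -1.17 and -0.98 over the 20 alternatives run, passing the adjusted p in 9. With Lamin B2 depleted it was -0.89 (standard error 0.29, 95% interval -1.55 to -0.23, adjusted p = 0.121), or 54.0% of control. That value became -0.58 when replicate 3 was left out (adjusted p = 0.225), and -1.26 when replicate 2 was left out, which passed (adjusted p = 0.0146).

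TMPO encodes the LAP2 family, whose alpha isoform binds A-type lamins in the nucleoplasm while the beta isoform sits in the inner membrane. On probe 1 the levels were 2.91, 3.09 and 2.95 in controls, 2.45, 2.12 and 2.54 in Lamin A/C Kd and 2.89, 2.81 and 2.32 in Lamin B2 Kd. On probe 2 they were 2.79, 2.65 and 2.85 in controls, 2.48, 2.29 and 2.44 in Lamin A/C Kd and 2.87, 2.501 and 2.30 in Lamin B2 Kd. All Lamin A/C Kd arrays were below all controls on both probes, and the Lamin B2 Kd arrays reached the control range on probe 2. Lamin A/C Kd gave a log2 fold change of -0.61 on probe 1, with a standard error of 0.18 and an adjusted p of 0.0652, and -0.36 on probe 2, with a standard error of 0.16 and an adjusted p of 0.201. For Lamin B2 Kd it was -0.31 on probe 1 (adjusted p = 0.310), or -0.13 without replicate 3, and -0.20 on probe 2 (adjusted p = 0.426). Whether the isoforms differed in their change was not tested.

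LEMD3 encodes MAN1, an inner membrane protein that also binds SMAD proteins and restrains TGF-beta signaling. Its levels were 4.39, 4.33 and 4.43 in controls, 3.95, 3.84 and 4.19 in Lamin A/C Kd and 4.33, 4.11 and 4.03 in Lamin B2 Kd. The Lamin A/C Kd arrays lay below the controls without overlap, and the highest Lamin B2 Kd array lay just below the lowest control. Depletion of Lamin A/C gave a log2 fold change of -0.39 and depletion of Lamin B2 one of -0.23, each with a standard error of 0.13, and neither passed (adjusted p = 0.106 and 0.317). The value for Lamin B2 was -0.16 without replicate 3.

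LBR had levels of 8.45, 8.44 and 8.51 in controls, 7.99, 8.17 and 8.26 in Lamin A/C Kd and 8.47, 8.40 and 8.36 in Lamin B2 Kd. Its Lamin A/C Kd arrays were below both other groups, while its Lamin B2 Kd arrays overlapped the controls. Its log2 fold change was -0.33 with Lamin A/C depleted, or 79.6% of control (standard error 0.11, adjusted p = 0.106). With Lamin B2 depleted it was -0.06, with a 95% interval from -0.31 to 0.20 (adjusted p = 0.769), and -0.03 without replicate 3. The Lamin B2 Kd value of LBR turned positive under quantile normalization, at 0.17, and under the 75th percentile shift, at 0.14.

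BANF1 had levels of 5.94, 5.84 and 6.03 in controls, 5.44, 5.49 and 5.70 in Lamin A/C Kd and 5.75, 5.57 and 5.36 in Lamin B2 Kd. Every array of both knockdowns was below every control. The Lamin A/C Kd signal was 76.3% of control, a log2 fold change of -0.39 (standard error 0.14), and the Lamin B2 Kd signal 77.2%, a log2 fold change of -0.37 (standard error 0.14). Neither passed, with adjusted p of 0.115 and 0.149, and the second value was -0.28 when replicate 3 was left out (adjusted p = 0.245).

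SUN1 (UNC84A), the SUN protein that binds prelamin A most strongly, had the smallest adjusted p of the set, on probe 1. Its levels there were 5.52, 5.41 and 5.53 in controls, 4.80, 4.89 and 5.03 in Lamin A/C Kd and 5.32, 5.35 and 5.28 in Lamin B2 Kd. The groups did not overlap, with controls highest, Lamin B2 Kd next and Lamin A/C Kd lowest. SUN1 fell by 0.58 in Lamin A/C Kd (standard error 0.11, 95% interval -0.83 to -0.34, limma adjusted p = 0.0140), and it passed in 14 of 20 alternatives, with log2 fold changes from -0.65 to -0.24 and adjusted p from 0.00153 to 0.216. The call was lost without control replicate 1 (-0.57, adjusted p = 0.0734) or 3 (-0.56, adjusted p = 0.0714) and without Lamin A/C Kd replicate 1 (-0.53, adjusted p = 0.0645) or 2 (-0.57, adjusted p = 0.0614). After Lamin B2 depletion it differed from the controls by -0.17 (standard error 0.11, adjusted p = 0.354), and -0.15 without replicate 3.

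SUN1 probe 2 had levels of 0.46, 0.40 and 0.21 in controls, 0.59, 0.27 and 0.52 in Lamin A/C Kd and 0.44, 0.10 and 0.23 in Lamin B2 Kd. The groups overlapped on it, although every one of the 9 arrays measured it well above background. Its log2 fold change in Lamin A/C Kd was 0.10 (standard error 0.14, 95% interval -0.21 to 0.42, adjusted p = 0.736), an interval that does not reach the value of probe 1. With the probes of a gene averaged, SUN1 was at -0.24 and did not pass, so the call for SUN1 rests on probe 1.

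SUN2 is the other widely expressed SUN protein. Its levels were 1.71, 1.82 and 1.95 in controls, 0.79, 1.48 and 0.55 in Lamin A/C Kd and 1.63, 1.92 and -0.31 in Lamin B2 Kd. All Lamin A/C Kd arrays were below all controls, but their SD was 0.48 against 0.12 in controls. In Lamin B2 Kd, replicates 1 and 2 were at or near the controls and replicate 3 was about 2 units below them. Against the controls, Lamin A/C Kd gave a log2 fold change of -0.89 with a standard error of 0.51 (adjusted p = 0.342). That standard error was 0.23 when Lamin B2 Kd replicate 3 was left out of the shared spread, and the same difference then passed (adjusted p = 0.0306). Lamin B2 Kd gave -0.75 with all arrays (standard error 0.51, adjusted p = 0.383) and -0.06 without replicate 3 (standard error 0.25, adjusted p = 0.938), so nearly the whole difference came from 1 array.

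Neither nesprin passed the test in either knockdown. SYNE1, a giant actin-binding nesprin, on its only probe that was above background throughout, had levels of -0.19, -0.20 and -0.43 in controls, -0.04, -0.03 and -0.02 in Lamin A/C Kd and 0.00, 0.13 and -1.48 in Lamin B2 Kd. All Lamin A/C Kd arrays and the Lamin B2 Kd replicates 1 and 2 were above all controls, and Lamin B2 Kd replicate 3 was far below them. Lamin A/C Kd gave a log2 fold change of 0.24 with a standard error of 0.36 (adjusted p = 0.761). Lamin B2 Kd gave -0.18 with the same standard error (adjusted p = 0.773), and 0.34 without replicate 3 (standard error 0.11, adjusted p = 0.122), a change of sign that came with 1 array. Of the 3 other SYNE1 probes, 2 were above background on 0 arrays and 1 on a single Lamin B2 Kd array, so no difference is given for them.

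SYNE2, the other giant actin-binding nesprin, had levels of 1.72, 1.91 and 1.68 in controls, 1.85, 1.93 and 1.63 in Lamin A/C Kd and 1.90, 1.83 and 1.12 in Lamin B2 Kd on its brightest probe. The groups overlapped. With Lamin A/C depleted its log2 fold change was 0.03, with a 95% interval from -0.43 to 0.50 (adjusted p = 0.954). With Lamin B2 depleted it was -0.15 (standard error 0.21, adjusted p = 0.661), and 0.10 without replicate 3. Probe 2 gave 0.17 and probe 3 gave -0.09 for Lamin A/C Kd, against -0.03 and -0.18 for Lamin B2 Kd, none of which passed. On both probes, replicate 3 was the only Lamin B2 Kd array below all controls. On probe 2 it was at 0.12, while replicates 1 and 2 were at 1.47 and 1.34, above the highest control at 1.04. The Lamin A/C Kd arrays, at 1.10, 1.24 and 1.18, were also above that control. On probe 3 the Lamin B2 Kd levels were -0.56, -0.48 and -1.31, against -0.71, -0.43 and -0.67 in controls. The overlapping probes 4 and 5 were above background on all 3 controls and on 1 Lamin A/C Kd array each, with log2 fold changes there of -0.43 (standard error 0.41) and -0.37 (standard error 0.46), and with adjusted p of 0.604 and 0.707. Their values for Lamin B2 Kd were -0.35 and 0.16 (adjusted p = 0.597 and 0.844).

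**Figure D2:**
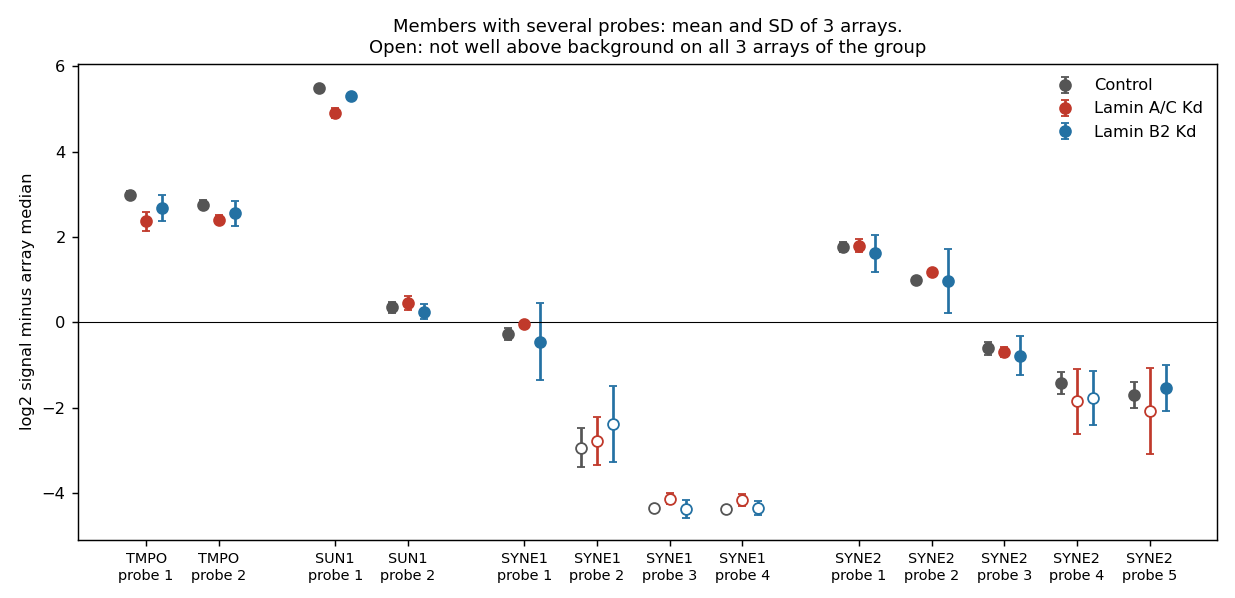
Mean and SD of 3 arrays (log2 signal minus the array median) of each probe of TMPO, SUN1, SYNE1 and SYNE2 in controls (grey), Lamin A/C Kd (red) and Lamin B2 Kd (blue). Open symbols mark groups where the probe was not well above background on all 3 arrays. The SUN1 decrease is seen on probe 1 and not on probe 2, and Lamin B2 Kd has the widest error bar of the 3 groups on SYNE1 probe 1 and SYNE2 probes 1 to 3.

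ZMPSTE24, whose product acts on the precursor made from LMNA, had levels of 8.36, 8.45 and 8.53 in controls, 8.22, 8.24 and 8.47 in Lamin A/C Kd and 8.47, 8.39 and 8.26 in Lamin B2 Kd. All 3 groups overlapped. Lamin A/C Kd differed from the controls by -0.14, with a 95% interval from -0.41 to 0.13 (adjusted p = 0.552), and Lamin B2 Kd by -0.07, with an interval from -0.34 to 0.20 (adjusted p = 0.706), or by -0.02 without replicate 3. These intervals leave out a 2-fold change in either direction.

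Of the 10 members, 0 passed limma's adjusted p in Lamin B2 Kd, where 4.3% of all 22123 genes tested did. EMD and BANF1 had an unadjusted p under 0.05, against 24.3% of all genes, and 0 members were called at 2-fold, against 2.03%. EMD, TMPO, LEMD3, BANF1 and SUN1, 5 of the 10, had all Lamin B2 Kd arrays below all controls, against 27.2% of all genes. The log2 fold change of all 10 was below 0, but so was that of 66.7% of all genes, and the median of the 10 was -0.20 against -0.14 for all genes. With the shift by the 75th percentile, 5 of 10 were below 0 and the median of all tested probes was 0.06 in place of -0.14, so the direction of the small values depended on the scaling. When replicate 3 was left out, 0 of 10 passed limma's adjusted p, against 4.53% of all genes, and 3 had an unadjusted p under 0.05, against 20.8%. Of the 10, 8 were then below 0, and their median was -0.09 against -0.06 for all genes.

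**Figure D3:**
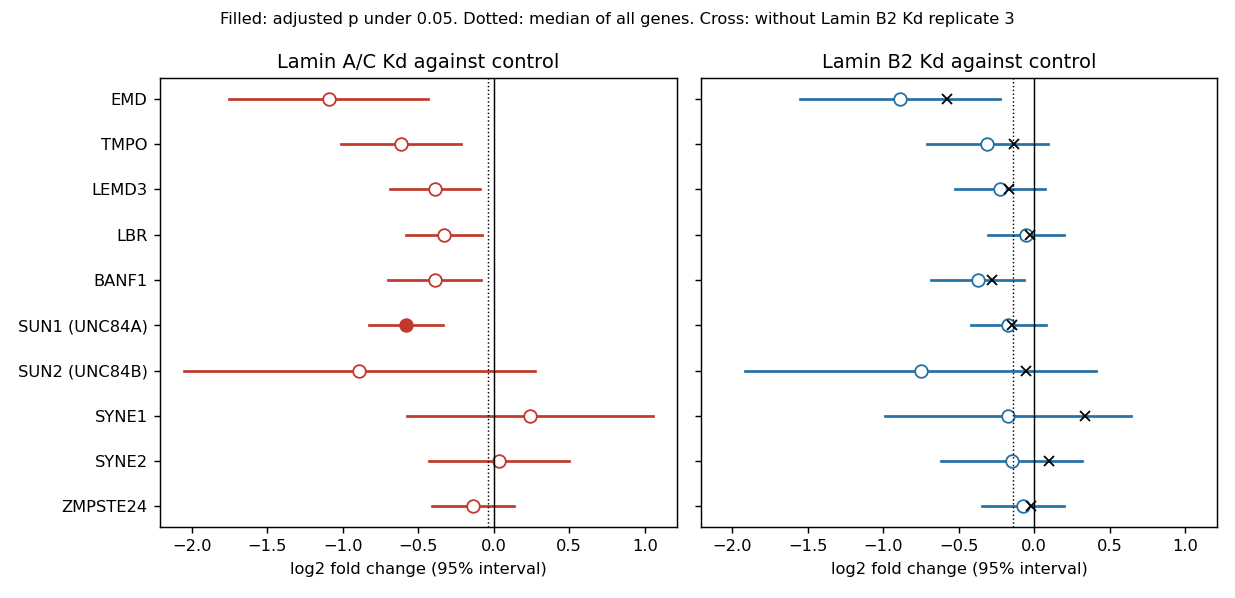
Log2 fold change of each lamin partner against the controls (horizontal axis) with its 95% interval in Lamin A/C Kd (left) and Lamin B2 Kd (right). Filled points have an adjusted p under 0.05, the dotted line is the median of all genes tested, and crosses give the Lamin B2 Kd value without replicate 3. Only SUN1 in Lamin A/C Kd is filled, and the cross lies nearer to 0 than the circle for SUN2, at -0.06 against -0.75. The same controls served both panels.

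The direct comparison of the knockdowns asks whether a member differed between loss of Lamin A/C and loss of Lamin B2. SUN1 was lower in Lamin A/C Kd than in Lamin B2 Kd by a log2 difference of -0.41 (standard error 0.11, 95% interval -0.66 to -0.17, limma adjusted p = 0.0345), and was the 1 member of 10 that passed. Of all 21852 genes tested 15.3% passed, and 4.4% passed as lower. It passed in 9 of 20 alternatives, was between -0.53 and -0.10 over them, and lost its call without any 1 array other than Lamin A/C Kd replicate 3 and Lamin B2 Kd replicate 3, with adjusted p from 0.0609 to 0.120. On its probe 2 the difference was 0.20 (adjusted p = 0.373). LBR and SUN1 were the 2 members whose Lamin A/C Kd arrays were all below all Lamin B2 Kd arrays, against 10.4% of all genes. The LBR difference was -0.27 (standard error 0.11, adjusted p = 0.138). For EMD the difference was -0.21 with a 95% interval from -0.87 to 0.46 (adjusted p = 0.678), and it was -0.51 when Lamin B2 Kd replicate 3 was left out (adjusted p = 0.180). BANF1 differed by -0.02, with an interval from -0.32 to 0.29, and by -0.11 without that array. Of the 10 members, 0 were called at 2-fold, against 4.2% of all genes, and 2 had an unadjusted p under 0.05, against 29.2%. When Lamin B2 Kd replicate 3 was left out, TMPO also passed (-0.48, adjusted p = 0.0466), which made 2 of 10, both lower, where 18.8% of all genes passed and 7.95% passed as lower. The SUN2 difference was then -0.84 (adjusted p = 0.0579).

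Other genes of the nuclear envelope were examined from a list of inner membrane and LINC components, enzymes that process lamins, and chromatin proteins that bind lamins or their partners. Of the 35 listed, 33 were on the array and 31 were tested against the controls. With Lamin A/C depleted, 1 of 31 passed the adjusted p, with 9 at an unadjusted p under 0.05 and 0 called at 2-fold, where 8.61%, 23% and 2.19% of all genes did. Their median log2 fold change was -0.14, and every Lamin A/C Kd array was below every control for 12 of 31, against 25.2% of all genes. RB1, the retinoblastoma protein that binds A-type lamins and LAP2 alpha, was the gene that passed, at 6.72, 6.73 and 6.87 in controls, 6.21, 6.11 and 6.43 in Lamin A/C Kd and 6.68, 6.66 and 6.68 in Lamin B2 Kd. Every Lamin A/C Kd array of RB1 was below every array of the other groups, and RB1 fell by 0.52 (standard error 0.12, adjusted p = 0.0279). On the other RB1 probe the difference was -0.08 (adjusted p = 0.742). That probe was far dimmer, with a mean level over the 9 arrays of 0.29 against 6.56. When Lamin B2 Kd replicate 3 was left out, 9 of 31 passed, and the share of all genes that passed rose from 8.61% to 20.3%. RB1 did not pass when control replicate 1, 2 or 3 or Lamin A/C Kd replicate 1 or 2 was left out, with log2 fold changes from -0.55 to -0.45 and adjusted p from 0.0872 to 0.122.

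By kind, 12 of 16 inner membrane and LINC genes, 8 of 10 chromatin partners and 2 of 5 processing enzymes had a log2 fold change below 0 in Lamin A/C Kd, where 55.5% of all genes did. For Lamin B2 Kd these counts were 12 of 16, 10 of 10 and 5 of 5, where 66.7% of all genes did. Of the 31 genes, 0 passed limma's adjusted p with Lamin B2 depleted, against 4.3% of all genes, and 11 had an unadjusted p under 0.05, against 24.3%. Their median was -0.25, against -0.14 for all genes. Every Lamin B2 Kd array was below every control for 16 of 31, against 27.2% of all genes, and above every control for 2. With replicate 3 left out, 9 had an unadjusted p under 0.05, against 20.8%, and the median was -0.12, against -0.06 for all genes.

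Between the knockdowns, 6 of 30 other envelope genes passed, against 15.3% of all genes, and they are named here after their values were seen. TMEM43 encodes LUMA, an inner membrane protein that binds emerin and lamins. Its levels were 5.95, 5.93 and 6.06 in controls, 6.47, 6.45 and 6.48 in Lamin A/C Kd and 5.63, 5.77 and 5.19 in Lamin B2 Kd. The 3 groups did not overlap, with Lamin A/C Kd above the controls and Lamin B2 Kd below them. TMEM43 was higher in Lamin A/C Kd than in Lamin B2 Kd by 0.94 (standard error 0.15, adjusted p = 0.00505), and the difference was between 0.76 and 1.06 and passed in 20 of 20 alternatives. Neither knockdown passed against the controls, with log2 fold changes of 0.49 for Lamin A/C Kd (adjusted p = 0.0848, and 0.00685 without Lamin B2 Kd replicate 3) and -0.45 for Lamin B2 Kd (adjusted p = 0.131, or -0.28 with an adjusted p of 0.143 without replicate 3). CBX1, the heterochromatin protein HP1 beta that binds LBR, was higher in Lamin A/C Kd by 0.51 (adjusted p = 0.0203), and NARF, which binds prelamin A, by 0.48 (adjusted p = 0.0449). RB1 was lower in Lamin A/C Kd by a difference of -0.42 (adjusted p = 0.0424), as were the LEM-domain genes ANKLE1 by -0.63 (adjusted p = 0.0405) and ANKLE2 by -0.43 (adjusted p = 0.0464). When Lamin B2 Kd replicate 3 was left out, the adjusted p of NARF, ANKLE1 and ANKLE2 was 0.0636, 0.0641 and 0.0522, and the differences kept their signs. TMEM201, GMCL1 and TOR1AIP1 passed in their place with adjusted p of 0.0102, 0.0278 and 0.0330, each lower with Lamin A/C depleted on its brightest probe. That made 6 of 30 again, against 18.8% of all genes. For TMEM201 the decrease was not seen on probes 3 and 4. Probe 3 had levels of 5.10, 5.15 and 5.22 in Lamin A/C Kd, against 5.13 and 4.84 in Lamin B2 Kd replicates 1 and 2. Probe 4 had 4.89, 5.04 and 5.12, against 4.93 and 4.9965. Apart from TMEM43, each of the 6 genes first named lost its call when some other array was left out: CBX1 without Lamin A/C Kd replicate 2 (0.48, adjusted p = 0.0810) or replicate 3 (0.51, adjusted p = 0.0638), and the others without any control or without Lamin B2 Kd replicate 1 or 2, among others.

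**Figure D4:**
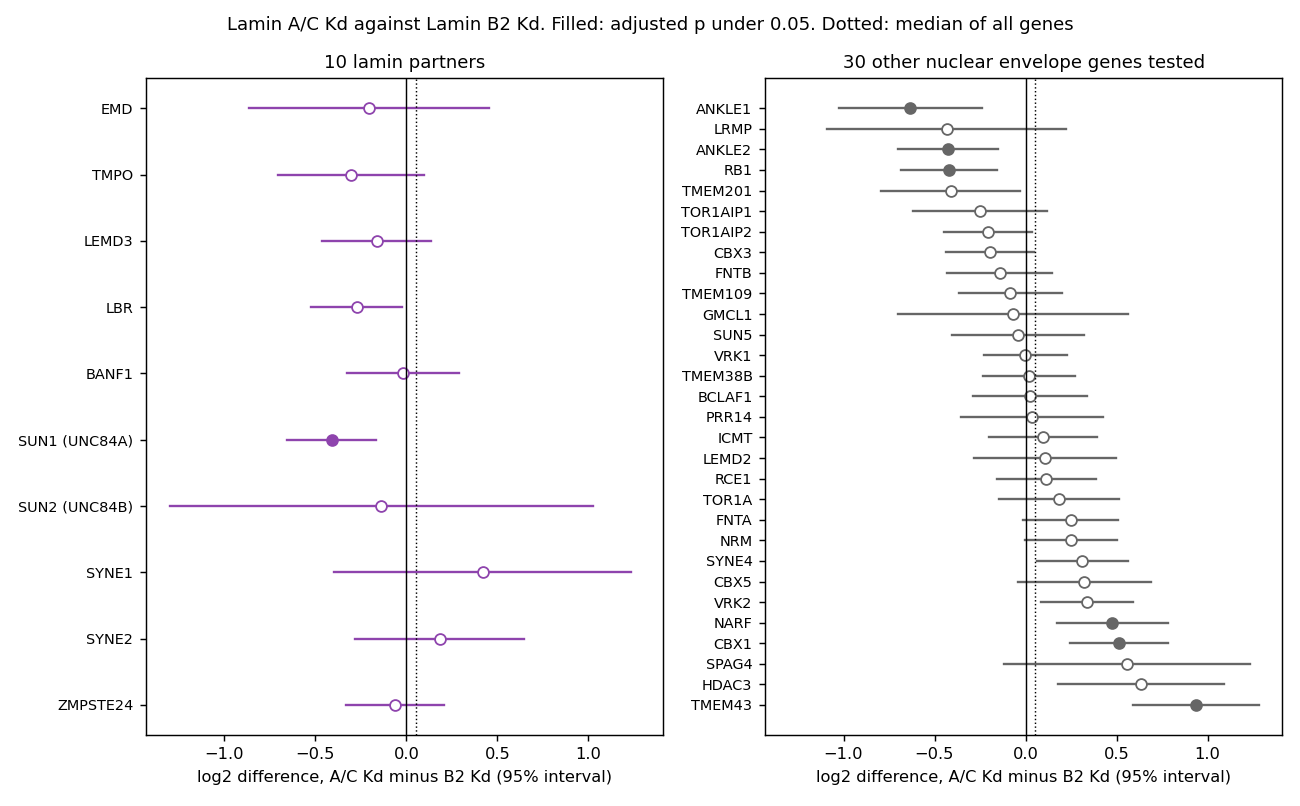
Log2 difference of Lamin A/C Kd minus Lamin B2 Kd (horizontal axis, with 95% interval) for the 10 lamin partners (left) and 30 other nuclear envelope genes (right). Filled points have an adjusted p under 0.05 and the dotted line is the median of all genes tested, at 0.05. Among the partners only SUN1 is filled, at -0.41, and among the other genes TMEM43 lies farthest to the right, at 0.94.

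The genes whose levels followed a member most closely over the 9 arrays were found for SUN1 and for EMD, the members with the smallest adjusted p after depletion of Lamin A/C and of Lamin B2 respectively. Among 20270 gene names detected on all arrays, the 3 most like SUN1 had Pearson's r from 0.991 to 0.993, and of these MNAT1, a subunit of the CDK-activating kinase, has a gene symbol. The 3 most like EMD had r from 0.980 to 0.982, and of these DOK4, a docking protein of receptor tyrosine kinases, has a gene symbol. The others carry transcript records in place of a symbol. These values describe the 9 arrays, which all members share, and carry no test.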

How the data were processed

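RNA from 9 cultures, 3 per group and called biological replicates in the methods, was labeled with Cy3 and hybridized to single-color Agilent arrays. The authors deposited the Feature Extraction output (10.5 per the submitters' notes), whose processed intensity is background-subtracted and spatially detrended. A further table deposited by the authors holds log2 signals shifted to the 50th percentile and centered per row, with values in 29972 of 50238 rows. Its Lamin B2 Kd set numbers differ from the titles, so the table served only as an alternative.

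For each probe, outlier spots were left out and log2 intensity minus the array's 50th percentile was averaged. No spot was saturated. A probe counts as well above background where at least 0.5 of its spots are so marked. Groups were compared with limma 3.58.1 (lmFit and eBayes, R 4.3.3) over all 9 arrays, with Benjamini-Hochberg adjustment over all tested probes at 0.05. The methods state a 2-fold change with a p threshold, naming neither a test nor an adjustment, and the p was taken here as unadjusted. The number of arrays, 3 in a group, bounds how precise any value can be.

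The members and lists were chosen with earlier results of these data known. Named are all members, the lamins, other envelope genes that passed (up to 10 per comparison) and the 3 genes most correlated with the leading member, and further names are marked in the text. The steps were tested on simulated data for Lamin A/C Kd against controls. There, 138 of 197 changes of 1.5 log2 units were recovered and 7 unchanged probes passed. A gene that did not pass can therefore still have changed. The paired replicate numbers were checked: the correlation of deviations of the 9 same-numbered pairs was between -0.05 and 0.08. Alternatives are given in the closing section. Figures were drawn with matplotlib. The summed level of the immune markers is not reported here.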

Additional observations from a re-analysis of the deposited data

How the results depend on the processing

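The share of all genes that passed moved with the alternatives, and the counts of the set are to be read against it. For Lamin A/C Kd against controls, 1 member and 1 other envelope gene passed, where 8.61% of all genes did. These counts became 4 and 5 with the 75th percentile shift (15% of all genes), 3 and 4 with quantile normalization (13.9%), and 7 and 10 with array weights (23.7%). They were 6 and 9 with normexp (15.9%), with only the groups compared (20%) and with the slide as a random block (18%), and 0 and 2 with the probes of a gene averaged (8.23%). They were 2 members when detection was required on all 9 arrays (10%), 0 other genes without a filter (2.9%) and 5 other genes with any probe counted. The 2-fold call of EMD was lost with quantile normalization, which left 0. For Lamin B2 Kd, normexp gave 1 member and 4 other genes (10.2%) and array weights 1 other gene (7.54%), in place of 0 (4.3%). Between the knockdowns, where 15.3% of all genes passed, the 1 member became 2 with the 75th percentile shift (21.9%) and with quantile normalization (21.6%), 3 with normexp (17.2%), and 0 without a filter (6.86%), with only the groups compared (7.8%) and with probes averaged (15.1%). The 6 other genes there became 2 in the authors' table (9.09%) and without a filter and 1 with only the groups compared. With the replicate number as a block, 0 members and 0 other genes passed in Lamin A/C Kd (4.15%), and 0 members and 1 other gene between the knockdowns (10.2%). Of the 9 same-numbered pairs, 0 had a correlation of deviations above 0.1, with Lamin B2 Kd numbered by the sample titles. That cannot show whether same-numbered cultures were prepared together, and the authors' table numbers Lamin B2 Kd otherwise.

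When each array was left out in turn, 0 to 7 members and 0 to 9 other genes passed in Lamin A/C Kd, 0 to 1 of each in Lamin B2 Kd, and 0 to 2 members and 2 to 6 other genes between the knockdowns. The highest counts in Lamin A/C Kd came without Lamin B2 Kd replicate 3, where 20.3% of all genes passed, and without 1 of the other arrays 2.54% to 8.13% did. Over the same fits, 0.0988% to 6.14% of all genes passed in Lamin B2 Kd and 8.34% to 18.8% between the knockdowns. Members called at 2-fold were 1 to 1 in Lamin A/C Kd, 0 to 2 in Lamin B2 Kd (2 without replicate 2) and 0 to 0 between the knockdowns. With all 9 arrays, 2.19%, 2.03% and 4.2% of all genes were called at 2-fold in the same order. A group left with 2 arrays is assumed to vary like the others.

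Small differences that were not called changed sign under some alternatives, and the cause was not tested. For Lamin B2 Kd, the 75th percentile shift gave 0.14 for LBR, 0.094 for RB1, 0.021 for SYNE1, 0.047 for SYNE2, 0.025 for SUN1 (UNC84A) and 0.12 for ZMPSTE24. Quantile normalization gave 0.17 for LBR, 0.13 for RB1, 0.061 for SUN1 and 0.15 for ZMPSTE24. Array weights gave 0.26 for SYNE1 and 0.062 for SYNE2, and the slide block 0.19 and 0.029. For Lamin A/C Kd, SYNE2 was at -0.030 with normexp and -0.14 with probes averaged, and CBX1 at -0.039 with probes averaged. Between the knockdowns, array weights gave -0.034 for SYNE1 and -0.0099 for SYNE2, and averaged probes gave -0.027 for SYNE2. With 1 array left out, SYNE2 ranged from -0.032 to 0.12 and ANKLE1 from -0.33 to 0.018 for Lamin A/C Kd, and SYNE1 from -0.46 to 0.34 and SYNE2 from -0.29 to 0.099 for Lamin B2 Kd. Between the knockdowns, EMD ranged from -0.51 to 0.17, BANF1 from -0.11 to 0.078, SUN2 (UNC84B) from -0.84 to 0.28, SYNE1 from -0.096 to 0.71, SYNE2 from -0.066 to 0.32 and LMNB1 from -0.80 to 0.13.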
